A study of Drosophila melanogaster with 2 samples.

Results

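Binding of Taiman was followed at 6 of 13945 annotated protein-coding genes, those of its partner Yorkie, of a DNA-binding partner of Yorkie and of 4 known targets. They were yki, sd, Diap1, Myc, nos and piwi, taken by name, each with its gene span and 5 kb on either side. Every summit in these windows was collected from 4 deposited peak lists. The lists come from chromatin immunoprecipitation and sequencing (ChIP-seq) of Drosophila melanogaster, with entire larvae of the third instar taken while wandering. The animals were males and females pooled, of unknown age, from a transgenic line that stably expresses Taiman with GFP (eGFP) at its C terminus, and the antibody was against GFP. The 1 group had 2 biological replicates, which carry the numbers 1 and 3 and share 1 control alignment, and no second genotype, stage or treatment was included. The labels do not give the promoter of the fusion, and in whole animals the tissue that carried a peak cannot be told apart.

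Yorkie, encoded by yki, is the transcriptional coactivator at the end of the Hippo pathway, which restrains the growth of imaginal discs. When the Hippo kinases are active Yorkie is held in the cytoplasm, and otherwise it enters the nucleus and binds DNA through partners such as the TEAD-family protein Scalloped, encoded by sd. Diap1 (an inhibitor of apoptosis that blocks caspases) and Myc (a driver of cell growth) are canonical Yorkie targets. Taiman, a coactivator of the ecdysone receptor, also binds Yorkie, and the pair is known to switch on the germline genes nos and piwi in somatic tissue. nos encodes Nanos, a translational repressor, and piwi encodes an Argonaute protein that silences transposons.

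At 5 of the 6 genes the window held at least 1 summit of the list that passed the authors' step for the irreproducible discovery rate (IDR), against 18.5% of all protein-coding genes. yki was the exception. The 12 summits fell as 6 at Diap1, 2 at Myc, 2 at piwi, 1 at sd and 1 at nos. Sequence around those that the account turns on is shown first, 100 bp to either side of the summit, on the plus strand of RefSeq's copy of Release 6 (dm6). The 6 peaks are the sd peak (chrX:15813286-15813486), the strongest Diap1 peak (chr3L:16046006-16046206), the Diap1 peak with a Scalloped-type motif (chr3L:16043226-16043426), the stronger Myc peak (chrX:3381871-3382071), the nos peak (chr3R:19162301-19162500, cut short by 1 base where an exon begins) and the piwi peak nearest to the gene (chr2L:10987580-10987780). Capitals mark matches, on either strand, to GGAATG (Scalloped and other TEAD proteins), TATCGATA (the DNA replication-related element, DRE) or GAGAG (GAGA factor, read as CTCTC on the other strand). No match shown overlaps another.
sd: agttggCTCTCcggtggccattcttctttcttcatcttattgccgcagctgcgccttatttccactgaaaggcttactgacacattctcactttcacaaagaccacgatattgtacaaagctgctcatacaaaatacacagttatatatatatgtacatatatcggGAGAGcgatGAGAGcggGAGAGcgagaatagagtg
Diap1, strongest: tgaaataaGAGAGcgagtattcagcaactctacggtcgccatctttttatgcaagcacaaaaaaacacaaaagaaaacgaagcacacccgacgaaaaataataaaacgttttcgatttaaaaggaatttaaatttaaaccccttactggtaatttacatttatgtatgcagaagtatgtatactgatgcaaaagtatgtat
Diap1, with GGAATG: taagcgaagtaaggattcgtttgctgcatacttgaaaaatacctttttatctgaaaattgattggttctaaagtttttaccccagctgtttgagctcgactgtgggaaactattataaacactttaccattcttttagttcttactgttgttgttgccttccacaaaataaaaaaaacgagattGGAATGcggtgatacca
Myc: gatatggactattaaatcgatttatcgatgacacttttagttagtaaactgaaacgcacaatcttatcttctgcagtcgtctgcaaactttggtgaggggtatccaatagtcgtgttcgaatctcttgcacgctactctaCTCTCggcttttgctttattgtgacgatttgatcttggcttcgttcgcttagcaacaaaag
nos: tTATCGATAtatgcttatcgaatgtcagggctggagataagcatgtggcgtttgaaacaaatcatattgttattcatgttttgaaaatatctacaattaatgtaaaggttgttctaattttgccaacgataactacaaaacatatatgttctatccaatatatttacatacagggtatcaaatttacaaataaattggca
piwi: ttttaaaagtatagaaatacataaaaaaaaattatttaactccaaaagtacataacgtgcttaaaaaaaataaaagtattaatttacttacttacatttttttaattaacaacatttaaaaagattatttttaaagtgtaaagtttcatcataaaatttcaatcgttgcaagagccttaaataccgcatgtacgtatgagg

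Of the 12 windows, 6 held a match to any of the 6 motifs looked for. The share of all IDR windows with any of the 6 was not counted, and GAGAG alone stood in 24.3%. GGAATG, the Scalloped-type motif, stood in 1 of the 12 windows, at Diap1, while 6.43% of all IDR windows on the arms and 7.62% of 19607 windows of the same length centred on protein-coding TSSs held it. GAGAG stood in 3 windows, with 4 matches at sd and 1 each at the strongest Diap1 and Myc peaks, against 24.3% of IDR windows and 24.9% of TSS windows. TATCGATA stood in 2, at nos and at the Diap1 peak that lies beside the gene Mbs, against 2.45% and 6.43%. No match to AGGTCA (a nuclear receptor half-site), CACGTG (an E-box) or CACGCG (the element bound by Taiman with Met or gce) fell within 100 bp of any of the 12 summits. IDR windows held these 3 at 3.58%, 1.68% and 3.74%, and TSS windows at 3.28%, 2.79% and 6.39%. Within 250 bp, GGAATG stood at 4 of 12 summits, 2 at Diap1, 1 at nos and 1 at piwi, and in 17.9% of IDR windows and 17.9% of TSS windows. G and C made up 21.4% to 46.8% of the 12 windows (median 33.6%), close to the median of 34.8% over all IDR windows, and the piwi sequence above was the poorest.

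The lists differ in what they hold. Those of replicate 1, of replicate 3 and of the pooled replicates each reach about 30000 regions, background included, and the IDR list has 2591 peaks, of which 2567 lie on the 6 main arms. On the arms the IDR list was the top of the pooled list by signal, 2567 regions without exception, with 65.2 as its lowest value and 89.1 as its median. Signal is the authors' own value per peak, with the median at 21.7 in replicate 1 and 18.6 in replicate 3. Since the lists were made separately, signals are given per list and ranks (1 for the strongest) are used beside them. The 2567 highest-ranked regions of a replicate are called its strongest peaks. Depth is unknown from these lists, and with 1 group and members chosen by name no test was made.

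yki itself had the least. Its span (2R, 24065975 to 24068485, minus strand) and flanks held no IDR summit, 1 pooled region, 4 regions of replicate 1 and none of replicate 3. The pooled region had a signal of 45.5, under the IDR limit, and lay 6887 bp downstream of the TSS of yki and 833 bp from that of RpL39, a ribosomal protein gene. In replicate 1 the signals were 41.4, 25.4, 16.1 and 16.0. The strongest of these ranked 2820 and stood 9 bp from the TSS of Rap2l, a small GTPase gene, and the weakest ranked 27535 and was the only one inside yki, in its 3' UTR. In none of the 4 lists did a summit lie within 500 bp of the TSS of yki.

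sd, the gene of the DNA-binding partner, carried regions at its promoters and elsewhere in its window. Its span (X, 15804370 to 15827682, plus strand) has 7 TSSs, and the window held 16 pooled regions, 14 of replicate 1 and 15 of replicate 3. The pooled regions came to 4.80 per 10 kb, against 2.24 over the arms. They were denser at Diap1 (23 regions, 10.2 per 10 kb) and Myc (21, 7.36) and sparser at nos (3.09), piwi (1.97) and yki (0.799). A single sd region reached the IDR list, at 15813386 in an intron, 167 bp upstream of the TSS of transcript sd-RL, with a signal of 70.0 and rank 2133. That peak had a signal of 30.9 in replicate 1, where it ranked 6073, and of 35.8 in replicate 3, where it ranked 1880. Replicate 3 thus held it among its strongest peaks and replicate 1 did not.

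Within 500 bp of every one of the 7 sd TSSs lay a pooled region and a region of replicate 3, and within 500 bp of 6 lay one of replicate 1. Over all 19607 protein-coding TSSs the shares were 21.3% in the pooled list, 21.9% in replicate 3 and 24.1% in replicate 1, and neighbouring sd TSSs share some of these regions. At the TSS shared by 12 sd transcripts, replicate 1 had a summit 251 bp downstream with a signal of 42.4 (rank 2684) and replicate 3 one 11 bp downstream with a signal of 29.1 (rank 3596). At the TSS of sd-RK and sd-RT replicate 3 had its strongest summit of the window, 2 bp upstream, with a signal of 38.2 and rank 1549. At the 5' end of the gene replicate 1 had its own strongest, 492 bp upstream, with a signal of 43.7 and rank 2510. The latter lay 2 bp from the TSS of the neighbour PGRP-LE, a gene for a receptor of bacterial peptidoglycan. The highest point of sd was therefore a different one in each replicate.

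Diap1 stood out among the 6 genes by number. Its window (3L, span 16038410 to 16051034, minus strand, 5 TSSs) held 6 IDR summits, or 2.65 per 10 kb, a density above that of 99.1% of protein-coding genes. Counting Diap1 itself, 78 protein-coding genes had 6 summits or more. The 6 windows together held 0.959 per 10 kb and the arms as a whole 0.192. The strongest Diap1 peak (16046022 to 16046319) lay in an intron, 740 bp downstream of the TSS of Diap1-RA and Diap1-RE, with a signal of 202 and rank 230. In replicate 1 its signal was 142 and its rank 209, and in replicate 3 its signal was 62.3 and its rank 472. It was the top region of the window in both replicates.

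The other 5 Diap1 peaks were close to the lower limit of the IDR list, with signals from 66.7 to 76.7, and each was among the strongest peaks of 1 replicate and not of the other. At the TSS of Diap1-RA and Diap1-RE a summit lay 39 bp downstream, in the 5' UTR, and ranked 2385 in replicate 1 (signal 44.8) and 6595 in replicate 3 (signal 24.4). The intronic peak with GGAATG, 756 bp upstream of the TSS of Diap1-RC, ranked 2411 in replicate 1 (signal 44.6) and 4551 in replicate 3 (signal 27.1). The motif begins 84 bp to the right of the IDR summit, and the replicate 3 summit lay 205 bp to the right of it.

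Beyond the 3' end of Diap1 the order turned round. The peak at 16037242 ranked 12009 in replicate 1 (signal 23.8) and 833 in replicate 3 (signal 48.4), and the peak at 16038052 ranked 5562 (signal 32.0) and 1295 (signal 40.8). Both were intergenic, with the TSS of CG5895 nearest, at 1564 and 2374 bp. On the 5' side the peak at 16051734, which holds TATCGATA, lay 700 bp upstream of Diap1-RF and 225 bp from the TSS of Mbs, which encodes a subunit of myosin phosphatase. It ranked 1713 in replicate 1 (signal 51.9) and 4656 in replicate 3 (signal 26.9). Thus 3 of the 6 Diap1 summits lay inside the gene, and the other 3 had the TSS of a neighbour nearest.

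Myc had its IDR summits inside an intron and none at its TSS. The span (X, 3373159 to 3391697, plus strand) has 1 TSS, and the IDR summits stood 8044 and 8812 bp downstream of it. The farther one had a signal of 111 and rank 812. Its signal was 44.1 in replicate 1, where it ranked 2457, and 66.4 in replicate 3, where it ranked 408, and the summits of the replicates lay 1 and 2 bp from the IDR summit. The nearer one (signal 70.2, rank 2120) had a signal of 18.8 in replicate 1, below the median of that list, at rank 20618. In replicate 3 it had a signal of 47.2 and rank 891, among the strongest peaks there. Both had the TSS of Myc as the nearest.

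Around the Myc TSS and upstream of it lay weaker regions found in both replicates. At the TSS replicate 1 had a summit 352 bp downstream (signal 31.9, rank 5605) and replicate 3 one 168 bp downstream (signal 20.8, rank 11005). About 3 kb upstream, replicate 1 had a summit at 2961 bp (signal 36.4, rank 3910) and replicate 3 at 2957 bp (signal 29.2, rank 3540). The strongest pooled region of Myc outside the IDR list had a signal of 64.6, just under the limit of 65.2, and lay 1617 bp upstream. The corresponding values outside the list were 63.0 at Diap1, 55.0 at sd, 49.6 at nos and 34.3 at piwi. The Diap1 and piwi regions lay in introns of these genes. The sd region lay outside its span, 41 bp from the TSS of PGRP-LE. The nos region lay in an intron of the neighbour sqz, 7894 bp from the nos TSS.

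**Figure D1:**
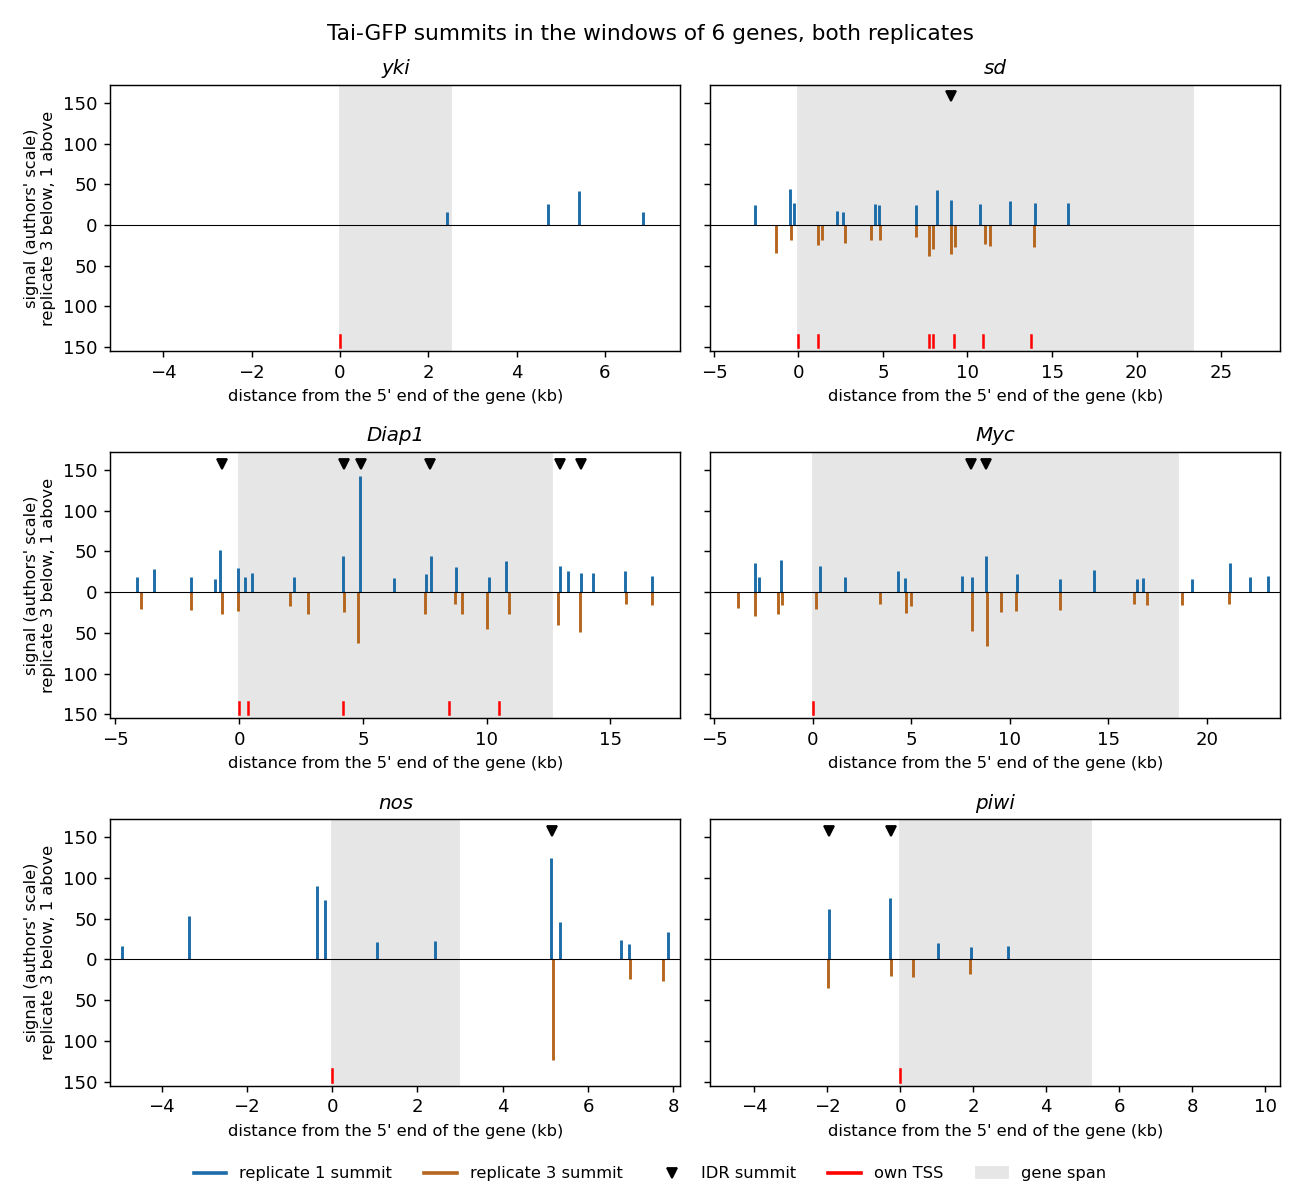
Summits of both replicates in the window of each of the 6 genes, by distance from the 5' end of the gene in kb. Bar height is the authors' signal, with replicate 1 above the line and replicate 3 below it, grey marks the gene span, red ticks its own TSSs and triangles the IDR summits; Diap1 has 6 triangles, yki none, and the only nos triangle is 5162 bp from the nos TSS.

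nos had the strongest peak of the 6 windows, but not at its own promoter. The peak (3R, 19162303 to 19162479) had a signal of 251 and rank 135, and its strongest summit had a signal of 124 in replicate 1 (rank 291) and 124 in replicate 3 (rank 87). It was high in both replicates. Its summit lay 5162 bp downstream of the nos TSS, beyond the end of the gene (span 19157238 to 19160202, plus strand), and 100 bp from the TSSs of Nsun5, an RNA methyltransferase gene, and CG42359. With flanks of 1 or 2 kb nos had no IDR summit.

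At the nos promoter itself the replicates differed. Replicate 1 had summits 359 bp upstream of the TSS, with a signal of 90.2 and rank 571, and 159 bp upstream, with a signal of 72.8 and rank 883. The TSS of CG11779 was the nearest to both, at 67 and 62 bp. The pooled list, the IDR list and the list of replicate 3 had no region within 500 bp of the nos TSS. Of all strongest peaks of replicate 1, 472 (18.4%) overlapped no region of replicate 3, and 53.0% of these had a protein-coding TSS no more than 500 bp away, compared with 35.0% of the others. The reverse count was 286 peaks of replicate 3 without a region in replicate 1 (11.1%), with 23.1% within 500 bp of a TSS and 33.1% of the others. The part of this difference in the nos result was not tested.

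piwi had a peak just upstream of its TSS that was strong in 1 replicate. The span (2L, 10982205 to 10987420, minus strand) has 1 TSS, and the IDR summits lay 260 and 1949 bp upstream. The nearer had a signal of 96.4 and rank 1098, with a signal of 75.6 in replicate 1 (rank 832) and of 20.6 in replicate 3 (rank 11242). It was thus among the strongest peaks of replicate 1 and a little above the median signal, 18.6, of the replicate 3 list. The farther had a signal of 96.5 and rank 1095, with a signal of 62.1 in replicate 1 (rank 1196) and of 35.4 in replicate 3 (rank 1946), among the strongest of both. Neither had piwi as the gene with the nearest TSS, which was CG12253 at 126 bp for the nearer and TTLL4A, a gene of the tubulin ligase family, at 32 bp for the farther.

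**Figure D2:**
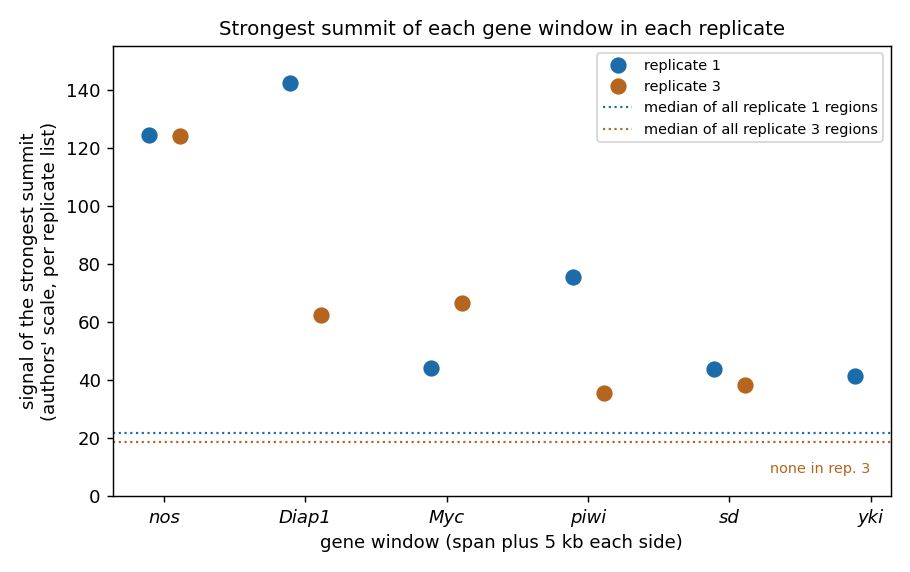
Signal of the strongest summit in each gene window, on the authors' scale of each replicate's own list, for replicate 1 (blue) and replicate 3 (brown), with the median of all regions as dotted lines. nos reached 124 in both replicates, Diap1 142 and 62.3, and yki 41.4 in replicate 1 with no region in replicate 3.

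By the rank of the strongest region in each replicate, the order of the gene windows depended on the replicate. In replicate 1 it was Diap1 (209), nos (291), piwi (832), Myc (2457), sd (2510) and yki (2820). In replicate 3 it was nos (87), Myc (408), Diap1 (472), sd (1549) and piwi (1946), with no region for yki. yki came last in both, and Diap1, nos and Myc stood ahead of sd in both. piwi stood ahead of Myc and sd in replicate 1 and behind them in replicate 3. Diap1 stood ahead of nos and Myc in replicate 1 and behind them in replicate 3. Myc, sd and yki were within a narrow range of signal in replicate 1, at 44.1, 43.7 and 41.4. The regions ranked for nos, piwi and yki, and that for sd in replicate 1, had the TSS of another gene nearest.

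Counted by replicate alone, the strongest peaks of replicate 1 had a summit in 5 of the 6 windows, against 21.1% of protein-coding genes, and those of replicate 3 in 5 of 6, against 19.3%. The 5 genes were the same, and yki had none. Single genes moved more. nos had 5 summits among the strongest peaks of replicate 1 and 1 in replicate 3, sd had 1 and 3, Myc 1 and 2, piwi 2 and 1, and Diap1 4 and 4.

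Of the 12 IDR peaks, 4 were among the strongest of both replicates (33.3%, 95% Clopper-Pearson interval 9.92 to 65.1, counting error only), against 50.4% of all IDR peaks on the arms. They were the strongest Diap1 peak, the farther Myc peak, the nos peak and the farther piwi peak. Another 4 were among the strongest of replicate 1 alone, against 24.6% of all IDR peaks on the arms. The remaining 4 were among those of replicate 3 alone, against 17.8%. Among the 1283 IDR peaks of highest signal 4 of 5 were shared in this way (84.7% of all IDR peaks there), and among the 1284 others 0 of 7 (16.0%). All 12 overlapped some region in both whole lists, as did 95.7% of IDR peaks. The IDR list was itself made from the alignments of both replicates, so its overlap with their lists is not independent replication. The control alignment common to both replicates also enters each of these overlaps, and its part was not tested.

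**Figure D3:**
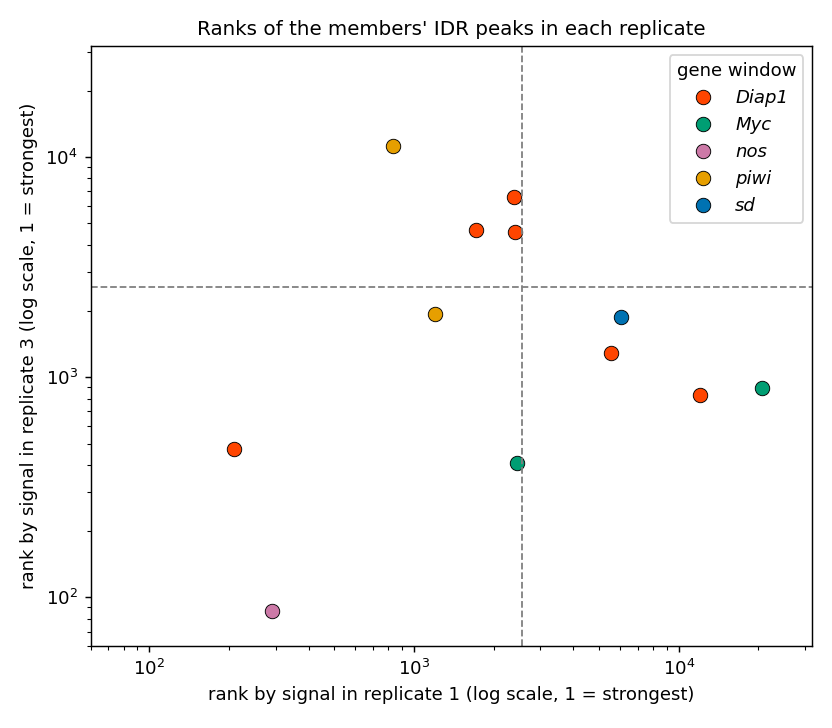
Rank by signal of the 12 IDR peaks in replicate 1 (x axis) and replicate 3 (y axis), both on log scales, with 1 the strongest and dashed lines at rank 2567. The 4 peaks at lower left are among the strongest of both replicates, and the nearer Myc peak, with ranks of 20618 and 891, lies farthest from the diagonal, followed by the Diap1 peak with ranks of 12009 and 833.

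The 12 summits lay at varied distances from the promoters of the genes whose windows held them. A summit within 500 bp of an own TSS was found for 3 genes, sd, Diap1 and piwi, against 6.33% of all protein-coding genes. Such summits were 3 of the 12 (25%). sd has 7 TSSs and Diap1 5, and the part of TSS number in the share of genes was not tested. Within 1000 bp of an own TSS lay 50% of the 12, and within 250 bp 16.7%. A TSS of any protein-coding gene stood within 500 bp of 6 of the 12 summits (50%, interval 21.1 to 78.9), compared with 32.8% of all IDR summits. By place, 6 were intergenic, 5 were in introns and 1 was in a 5' UTR. Places, and the shares within 250 and 1000 bp, were not counted over all IDR summits. When a summit counted only if it lay inside the gene or had the gene's own TSS nearest, 6 summits were left, in sd, Diap1 and Myc, and 10.5% of all genes had one. nos and piwi lost theirs under this count.

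The whole lists, which include background, held regions at more of the genes' TSSs. Of the 16 TSSs of the 6 genes, 3 had an IDR summit within 500 bp, against 5.77% of all protein-coding TSSs. A region stood at 14 of the 16 in the pooled list (21.3% of all TSSs), at 14 in replicate 1 (24.1%) and at 14 in replicate 3 (21.9%). These TSSs are not independent, since 12 of the 16 belong to sd and Diap1. The TSS of yki had none in any list, that of nos had one in replicate 1 alone, and that of sd-RD had one in replicate 3 and the pooled list.

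Other genes of the pathway were set beside these 6. Of 12 cofactors and DNA-binding partners of Yorkie, 4 had an IDR summit in span plus 5 kb (33.3%, interval 9.92 to 65.1), where the share over all protein-coding genes was 18.5%. Trl, which encodes GAGA factor, had the strongest (signal 377, rank 45), followed by E2f1, a cell cycle regulator (171, with 9 summits in the window), Mad, the effector of BMP signalling (87.0), and hth, a homeodomain partner of Yorkie (75.0). In the E2f1 window the strongest summit had InR, the insulin receptor gene, nearest. The other 8, among them vg and Tgi, whose products bind Scalloped, had none.

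Of 15 other Yorkie targets, 1 of them the microRNA gene mir-ban, 7 had one (46.7%, interval 21.3 to 73.4). By the strongest peaks of a single replicate, 6 of these 15 had one in replicate 1 and 10 in replicate 3, where the shares over all genes were 21.1% and 19.3%. The strongest stood at crb, a polarity gene (signal 408, rank 40), and ex, an upstream component that feeds back on the pathway (200). Next came CycE, which drives entry into S phase (159), and dlp, a glypican gene (139, with 8 summits). The strongest dlp summit had RecQ5 nearest. Of 7 genes of the kinase cassette, only wts had one (14.3%, interval 0.361 to 57.9), and its strongest (137) lay nearest to the TSS of cindr. Of 19 other germline and piRNA genes 5 had one (26.3%, interval 9.15 to 51.2), led by pum, the partner of Nanos (323), rhi, which marks piRNA clusters (126), osk, which builds germ plasm (98.1, with pyd nearest), and tej, a piRNA factor (95.1). Windows were longer than the gene median of 12.2 kb in these lists, at 23.4, 27.5, 13.9 and 14.7 kb in that order, and 18.9 kb for the 6 genes. The part of window length in the counts was not tested.

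**Figure D4:**
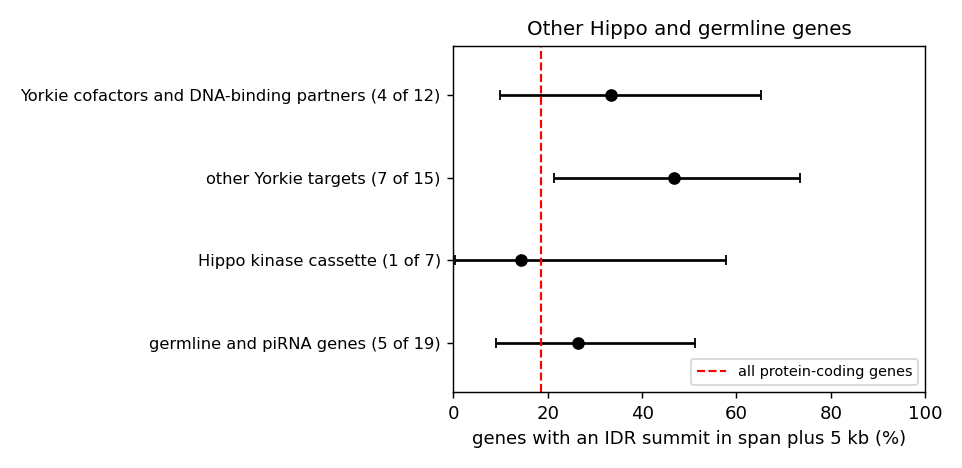
Share of genes in 4 lists with at least 1 IDR summit in span plus 5 kb, in percent, with 95% Clopper-Pearson intervals for counting error. The dashed line is the share of all protein-coding genes, 18.5%, and the listed shares run from 14.3% in the kinase cassette to 46.7% in the other Yorkie targets.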

How the data were processed

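The files used were peak lists on dm6 for each replicate, for the pooled replicates and for the IDR step. The signal of each peak is the authors' own deposited value. Per the text records deposited with the lists, each replicate and the pool were called against the same control alignment. The aligner, the caller, its settings and the scale of the signal were not given in the sources used here. Depth is unknown. Lists on dm3 were not used.

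Gene spans, TSSs and exons came from Ensembl release 115 (BDGP6.54), in which nos is named nanos and was matched by its FlyBase identifier. Sequence came from RefSeq's copy of Release 6, whose arms cover every peak end. Coordinates are 1-based. Ranks were taken on the 6 arms, overlaps counted from 1 bp, and motifs were searched on both strands. Tables were made in Python 3.11.15 (pandas 2.3.3, numpy 2.4.6), intervals with scipy 1.17.1 and plots with matplotlib 3.10.9, and the counting was tested on simulated data.

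Earlier results of these data were known when the 6 genes, 4 lists of other genes and 6 motifs were chosen. Genes named are the 6, those with the TSS nearest to each of their IDR summits, up to 4 per list by strongest summit, and the 2 most like each gene in number of IDR summits and strongest signal. RpL39, Rap2l, PGRP-LE, sqz, InR, cindr, pyd, RecQ5, vg and Tgi were added after their values were seen. Alternatives were other flanks, list limits, overlaps, distances, motif windows and each replicate alone.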

Additional observations from a re-analysis of the deposited data

How the results depend on the processing

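Of 52 alternative values for the main counts and shares, 41 were within the set limits of the main value and 11 were not, and of 48 for single genes 32 were. For counts the limit was a factor of 1.5. Limits for shares were wider. The share of summits near an own TSS was 25% within 500 bp, with a Clopper-Pearson interval of 5.49 to 57.2. The 50% within 1000 bp was scored as within limits of it. With limits this wide the tally cannot show that the shares are stable. The number of the 6 genes with an IDR summit lay between 3 and 6. It was 3, with 6 summits, when the nearest TSS had to be the gene's own or the summit inside its span, and 6 with flanks of 10 kb, where yki gained 1. The 1283 IDR peaks of highest signal left 5 summits, in 4 genes, and 2 of the 12 cofactor genes. With whole replicate lists, 100% of the 12 peaks overlapped both. GGAATG stood at 0 summits within 50 bp and at 4 within 250 bp. Within 50 bp TATCGATA stood at 1 and GAGAG at 1, and within 250 bp CACGTG stood at 1. For each replicate alone, its strongest peaks took the place of the IDR list, so the summits counted need not be those of the IDR list. In this count 5 of the 6 genes had a summit in either replicate. Total summits were 13 in replicate 1 and 11 in replicate 3, and kinase cassette genes with one were 2 and 1. By replicate 1 alone nos had 5 summits, and by replicate 3 alone sd had 3 and piwi 1. No paired analysis was possible because there is only 1 group. Unknown depth and 2 replicates limit every rank, and the causes of these changes were not tested.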

Other observations

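The genes most like each of the 6 in number of IDR summits and strongest signal were often neighbours that share the same peaks. CG8509 shared the sd peak, CG11779 and CG42359 the nos peak, and CG12253 and TTLL4A both piwi peaks. Elsewhere in the genome, CG34267 was nearest to sd with 1 summit of signal 70.0. Diap1 was nearest to CG33687 and CG12535, with 6 summits each and strongest signals of 198 and 197. CG12535 is itself a neighbour of Myc, and the 3' UTRs of the 2 genes overlap. Myc was nearest to goe and CG31406, with 2 summits each and strongest signals of 111 and 112. Leaving out the 6 genes themselves, 1423 protein-coding genes had 1 summit in the window, 641 had 2 and 35 had 6.

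At the far end of the nos window, both replicates had regions at sqz, which encodes a zinc finger protein. Beside its TSS replicate 1 had a summit at 5 bp (signal 18.5, rank 21282) and replicate 3 at 11 bp (signal 23.7, rank 7222). The former was below the median of its list, 21.7, and replicate 1 had a stronger one at 212 bp (signal 24.3, rank 11360). In an intron of sqz the signals were higher, at 33.2 in replicate 1 (rank 5001) and 26.7 in replicate 3 (rank 4778). The pooled summits had signals of 43.3 beside the TSS and 49.6 in the intron, both under the IDR limit of 65.2.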
